A study of Bos taurus with 18 samples.

Results

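The 8 miRNAs described here are *bta-miR-106b*, *bta-miR-93*, *bta-miR-25*, *bta-miR-106a*, *bta-miR-18b*, *bta-miR-20b*, *bta-miR-363* and *bta-miR-92b*, and they were taken by name from the 1071 miRNAs listed in plasma of Japanese Black cattle. They are detected paralogs, that is duplicated relatives, of the miR-17-92 cluster. *bta-miR-19b* and *bta-miR-92a*, which also have gene copies in a paralog cluster, are not among the 8 and are treated with miR-17-92. In the RefSeq gene table of the cattle assembly ARS-UCD2.0, *MIR106B*, *MIR93* and *MIR25* stand next to each other within *MCM7*, the gene of a DNA helicase subunit. *MIR20B*, *MIR18B* and *MIR106A* follow each other, and *MIR363* lies beside *MIR92A-2* in the same stretch, the miR-106a-363 cluster. *MIR92B* lies between *THBS3* and *MUC1*, so it belongs to neither cluster by position, and it is included here for its sequence.

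Blood was taken from 3 steers (castrated males) of this beef breed at about 20, 25 and 30 months of age during fattening, which gave 9 plasma samples. From 1 mL of each plasma sample, RNA was prepared separately from exosomes, small vesicles released by cells (EX fraction), and from the free circulating, protein-bound remainder (FC fraction). The 18 small RNA libraries therefore fall into 6 groups of 3, which are EX at 20, 25 and 30 months and FC at 20, 25 and 30 months, with 1 library per steer in each group. Libraries with the same replicate number were taken as the same steer, which the labels do not state. No group was treated, all steers were kept under the same feeding system, and age cannot be told apart from the date of sampling and from whatever changed with it.

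A miRNA guides a protein complex to messenger RNAs, mainly by pairing through its seed, the bases 2 to 8 counted from its 5′ end, and lowers their translation and stability. The miR-17-92 cluster and its paralogs carry only a few distinct seeds and are best known for promoting cell proliferation and survival, through repression of targets such as *CDKN1A* and *BCL2L11*. They are abundant in dividing progenitor cells, including those of blood, and are released into plasma.

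The mature sequences show which of these miRNAs can act alike and which can share reads. They are printed 5′ to 3′ as listed in the deposited table, with the seed in capitals. The sequences with the seed AAAGUGC, shared with *bta-miR-17-5p* and *bta-miR-20a* of the miR-17-92 cluster, are the following.
bta-miR-106b: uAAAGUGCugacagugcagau
bta-miR-93: cAAAGUGCuguucgugcaggua
bta-miR-106a: aAAAGUGCuuacagugcaggua
bta-miR-20b: cAAAGUGCucacagugcaggua
The seed AAGGUGC of *bta-miR-18b* is shared with *bta-miR-18a* of the parent cluster.
bta-miR-18b: uAAGGUGCaucuagugcaguua
The seed AUUGCAC of *bta-miR-25* and *bta-miR-92b* is shared with *bta-miR-92a*, which has gene copies in the parent cluster and, as *MIR92A-2*, in the miR-106a-363 cluster, and with *bta-miR-32*.
bta-miR-25: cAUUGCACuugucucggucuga
bta-miR-92b: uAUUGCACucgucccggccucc
bta-miR-92a: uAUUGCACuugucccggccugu
In *bta-miR-363* as listed, the same 7 letters AUUGCAC stand at bases 1 to 7, so that its bases 2 to 8 are shared with 0 other known miRNAs of the table.
bta-miR-363: aUUGCACGguauccaucugcg

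Some of these sequences are nearly identical to those of the parent cluster. They were compared without gaps from the 5′ end over 22 positions, with the base of the first-named miRNA written first. Over these, *bta-miR-106a* differs from *bta-miR-17-5p* by A1C alone, *bta-miR-20b* from *bta-miR-17-5p* by C10U alone, and *bta-miR-18b* from *bta-miR-18a* by U20A alone. *bta-miR-17-5p* is listed with 24 bases, so it is longer at its 3′ end than the 22 bases of *bta-miR-106a* and *bta-miR-20b*. *bta-miR-92b* differs from *bta-miR-92a* by C10U, C21G and C22U. A count that is not a whole number shows that reads were divided among miRNAs that they fit equally. Such counts occurred for *bta-miR-106a* in 14 of 18 libraries, *bta-miR-18b* in 12, *bta-miR-20b* in 11, *bta-miR-25* in 10 and *bta-miR-106b* in 6. For *bta-miR-92b* they occurred in 8 of the 14 libraries whose count rows could be read directly. For *bta-miR-93* and *bta-miR-363* they occurred in 0 of 14 and 0 of 18 libraries. The values of *bta-miR-106a*, *bta-miR-106b*, *bta-miR-18b*, *bta-miR-20b* and *bta-miR-92b* are therefore uncertain where reads of a more abundant relative were divided.

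Library totals ranged from 991354 to 2778618 counts in EX and from 3615234 to 12088735 counts in FC, and they were lower at 30 than at 25 months in 3 of 3 steers of each fraction, with overlapping ranges in EX. At these totals, 3 counts, the level below which a value is treated as not detected, correspond to 1.08 to 3.03 CPM-normalized counts (CPM, counts scaled to the same total in each library) for EX and 0.248 to 0.830 CPM for FC. These limits cover counting error only, since PCR copies of 1 molecule are not independent. Plasma holds RNA from many cells, so marker miRNAs of blood cells were read beside the 8 miRNAs, and all of the markers were detected in every library. The lymphocyte markers *bta-miR-150* and *bta-miR-342* together ranged from 113415 to 324692 CPM in EX at 25 months and from 13723 to 27464 CPM at 30 months, and in FC from 80690 to 230827 CPM and from 14651 to 26926 CPM. The summed red cell markers *bta-miR-451*, *bta-miR-144* and *bta-miR-486* overlapped between these ages, at 28558 to 92244 CPM against 34776 to 54074 CPM in EX, whereas FC had 18948 to 46802 CPM against 21521 to 34381 CPM. Of these, *bta-miR-451* alone was lower at 30 than at 25 months without overlap, at 12461 to 43037 CPM against 5882 to 8502 CPM in EX and 8394 to 20781 CPM against 3757 to 5717 CPM in FC, while *bta-miR-486* overlapped with a higher mean at 30 months. *bta-miR-223*, a marker of myeloid cells and platelets, ranged from 9652 to 38157 CPM and from 25337 to 29918 CPM in EX, and from 13252 to 47324 CPM and from 48799 to 59516 CPM in FC, where the ages did not overlap. In such bulk samples, fewer cells of a type and less RNA per cell cannot be told apart.

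The 8 miRNAs covered a wide range of abundance, with *bta-miR-25* and *bta-miR-93* far above the rest. Mean CPM-normalized counts over the 9 libraries of EX were 22594 ± 6589 (SD) for *bta-miR-25* and 14584 ± 5396 for *bta-miR-93*, which ranked 11th and 17th among the 1071 miRNAs. In FC they were 17307 ± 3101 and 15178 ± 4106, ranks 12 and 17. Next in EX came *bta-miR-106b*, with 301 ± 144 CPM in EX against 152 ± 54.7 CPM in FC. *bta-miR-92b* was at 249 ± 67.0 and 228 ± 93.8 CPM, so that in FC it stood above *bta-miR-106b*, in 8 of 9 libraries. *bta-miR-363* stood at 49.5 ± 34.9 and 70.1 ± 43.2 CPM, and *bta-miR-20b* at 65.0 ± 20.4 and 39.5 ± 22.8 CPM. *bta-miR-106a* reached 8.99 ± 8.48 and 6.74 ± 2.57 CPM, and *bta-miR-18b* 3.25 ± 3.49 and 5.52 ± 2.67 CPM.

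The products of 1 cluster therefore differed widely in level, since *bta-miR-93* exceeded *bta-miR-106b* in 9 of 9 libraries of each fraction without overlap of their ranges. Neighbours in the order of levels were often not separated. *bta-miR-25* exceeded *bta-miR-93* in 9 of 9 EX libraries and 7 of 9 FC libraries, but their ranges overlapped in both fractions. The ranges of *bta-miR-106b* and *bta-miR-92b* also overlapped in both fractions, as did those of *bta-miR-20b* and *bta-miR-363* and those of *bta-miR-106a* and *bta-miR-18b*. These are levels in the libraries of each miRNA as sequenced, and small RNA libraries capture different sequences with different efficiency.

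**Figure D1:**
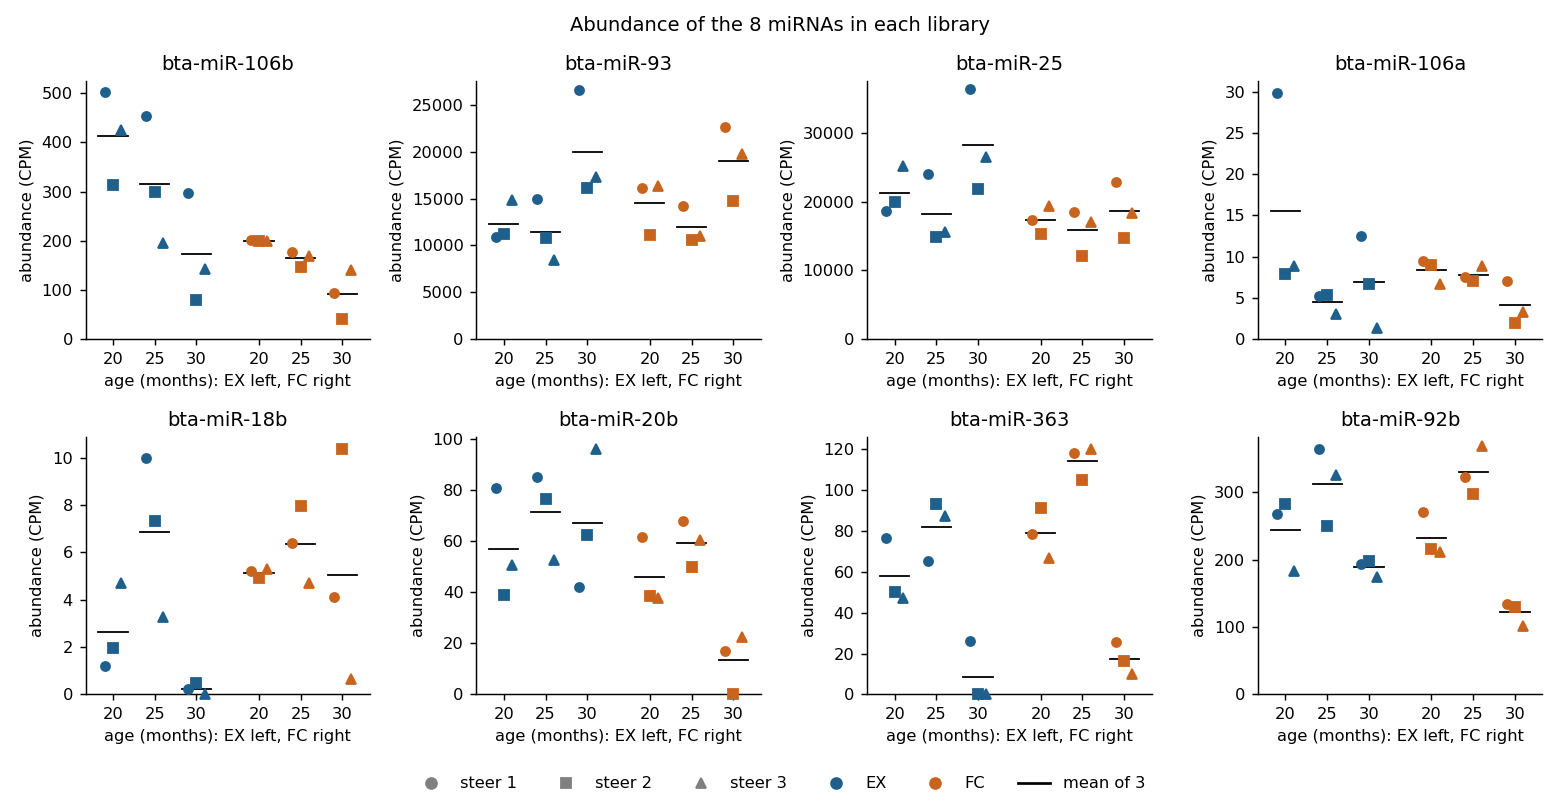
CPM-normalized counts (vertical axes, linear from 0) of the 8 miRNAs in all 18 libraries, by age in months, with EX in blue on the left and FC in orange on the right; symbols are the 3 steers and bars are the means of 3. *bta-miR-93* stands higher at 30 than at 25 months in both fractions, whereas *bta-miR-106b*, *bta-miR-92b* and *bta-miR-363* stand lower in every steer.

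The first question was whether these miRNAs changed late in fattening, between 25 and 30 months. DE-miRNAs were called at a false discovery rate (FDR) below 0.05 and |log2 fold change| > 1 in a model with age and steer. A miRNA was tested where 3 or more of a fraction's 9 libraries exceeded 5 CPM, which left 7 of the 8 in EX, without *bta-miR-18b*, and all 8 in FC. In EX, 0 of 7 were called, against 14.2% of all 345 miRNAs tested (10.4% lower), and 3 of 7 had an unadjusted p below 0.05 in the edgeR quasi-likelihood test, against 29.6% of all. With other tests on the same libraries, the number called in EX was 3 with DESeq2 (24.6% of all miRNAs), 1 with limma (20% of all) and 1 with the likelihood ratio test of edgeR (26.1% of all). In FC, 2 of 8 were called, both lower at 30 months, against 15.6% of all 358 miRNAs tested (10.1% lower), and 5 of 8 had an unadjusted p below 0.05, against 37.2% of all. The median log2 fold change was −0.55 over the 7 miRNAs in EX, beside −0.51 over all those tested, and −1.13 over the 8 miRNAs in FC, beside −0.20 over all.

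*bta-miR-363*, of the miR-106a-363 cluster, fell late in fattening in FC. Its level there was 78.5, 91.1 and 66.6 CPM in steers 1, 2 and 3 at 20 months, 117.9, 104.8 and 120.0 CPM at 25 months, and 25.5, 16.6 and 10.3 CPM at 30 months. All 3 libraries at 30 months lay below all 6 libraries of the earlier ages. The log2 fold change from 25 to 30 months was −2.92 ± 0.44 (SE, 3 libraries per age; edgeR FDR = 0.00673), and that from 20 to 30 months was −2.21 ± 0.43 (FDR = 0.0270). The first call was lost without steer 1 (−3.34, FDR = 0.0657) or steer 3 (−2.36, FDR = 0.0775), and the second without any 1 of the 3 steers, where 2 steers remained.

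In EX, *bta-miR-363* stood at 76.5, 50.0 and 47.4 CPM at 20 months and at 65.3, 93.1 and 87.0 CPM at 25 months. At 30 months it had 52 counts (26.2 CPM) in steer 1 and 0 counts in steers 2 and 3, where 3 counts would be 3.03 and 2.77 CPM. The groups did not overlap. The fitted log2 fold change of −5.29 ± 2.09 (SE; edgeR FDR = 0.137) was not called and rests on the libraries at 0, with FDR values between 0.00166 and 0.397 over the 12 alternatives. Leaving out 1 steer gave log2 fold changes from −10.6 to −3.67. This EX change was called by DESeq2 (FDR = 0.00166), limma (FDR = 0.0285) and the likelihood ratio test (FDR = 0.0351).

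*bta-miR-20b*, of the same cluster as *bta-miR-363*, had its lowest levels in FC at 30 months. In FC, it was at 61.7, 38.4 and 37.7 CPM at 20 months, 67.7, 49.8 and 60.3 CPM at 25 months, and 17.1, 0.277 and 22.6 CPM at 30 months. The 3 libraries at 30 months were the lowest of the 9, and that of steer 2 held 1 count. The log2 fold change from 25 to 30 months was −2.62 ± 0.90 (SE; edgeR FDR = 0.0708), and it was not called. DESeq2 (FDR = 0.00780), limma (FDR = 0.0229) and the likelihood ratio test (FDR = 0.0191) called it, as did the edgeR test without steer 2 (−1.81, FDR = 0.0322). In EX, the levels overlapped at all ages, with 85.1, 76.5 and 52.7 CPM at 25 months and 42.0, 62.5 and 96.0 CPM at 30 months (log2 fold change −0.55 ± 0.78, FDR = 0.717). The difference between the 2 fractions in this change was 2.53 ± 1.40 on the log2 scale (95% confidence interval −0.63 to 5.69, FDR = 0.323) and was not called.

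*bta-miR-106a* and *bta-miR-18b* were the least abundant of the 8, with few counts in EX. In FC, *bta-miR-106a* was at 7.46, 7.07 and 8.80 CPM at 25 months and at 7.03, 1.94 and 3.24 CPM at 30 months (log2 fold change −1.20 ± 0.75, FDR = 0.280), lower in 3 of 3 steers without overlap. In EX, it ranged from 3.01 to 5.35 CPM at 25 months and from 1.39 to 12.5 CPM at 30 months (log2 fold change −0.07 ± 1.32, FDR = 0.976). *bta-miR-18b* had 8 to 22.5 counts per EX library at 25 months and at most 0.5 counts at 30 months, when it was not detected, so that the groups did not overlap, but it was below the filter of 5 CPM in EX. With lower filters, which admitted it, 0 of 8 miRNAs were called in EX from 25 to 30 months, against 6.26% of all with no filter and 9.5% with CPM over 1. In FC it ranged from 4.70 to 7.98 CPM and from 0.657 to 10.4 CPM, which overlapped (log2 fold change −0.79 ± 0.92, FDR = 0.552). The lowest of these values, in steer 3 at 30 months, lay below the 0.789 CPM of 3 counts there. Leaving out 1 steer gave −1.58 to −0.046 for this FC change. Neither miRNA was called by edgeR in any comparison with the filter of 5 CPM.

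*bta-miR-92b*, the solitary relative of *bta-miR-92a* and *bta-miR-25*, fell in FC. Its FC level was 271, 216 and 211 CPM at 20 months, 323, 297 and 369 CPM at 25 months, and 133.9, 129.6 and 101.5 CPM at 30 months. No library at 30 months reached those of the earlier ages (25 to 30 months: log2 fold change −1.59 ± 0.30, edgeR FDR = 0.0146; 20 to 30 months: −0.93 ± 0.29, FDR = 0.0804). The call was lost without steer 1 (−1.75, FDR = 0.0751) or steer 3 (−1.19, FDR = 0.0775). In EX, it was at 364, 250.0 and 325 CPM at 25 months and at 193, 199 and 175 CPM at 30 months, again without overlap (log2 fold change −1.22 ± 0.43, FDR = 0.104). This EX change was called when steer was left out of the model (no replicate block: −1.21, FDR = 0.0472) and by DESeq2 (−1.15, FDR = 0.0410).

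Among the products of the miR-106b-25 cluster, *bta-miR-106b* was lower at 30 months in 3 of 3 steers of each fraction. Its EX level was 502, 313 and 426 CPM at 20 months, 454, 298 and 195 CPM at 25 months, and 296, 79.7 and 142 CPM at 30 months. The last group lay below that at 20 months and overlapped with that at 25 months. It fell between 20 and 30 months (log2 fold change −1.76 ± 0.44, edgeR FDR = 0.0361), the 1 call among the 7 miRNAs tested in this comparison, against 13.3% of all miRNAs (9.86% lower). That call was lost without the block for steer (−1.57, FDR = 0.0603) and without any 1 steer (FDR from 0.121 to 0.180). For 25 to 30 months the log2 fold change was −1.41 ± 0.44 (FDR = 0.0654), and DESeq2 called it (−1.32, FDR = 0.0113).

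In FC, the 3 libraries of *bta-miR-106b* at 20 months were nearly equal, at 201.2, 199.6 and 199.9 CPM. They were followed by 176, 146 and 169 CPM at 25 months and 94.1, 39.8 and 141 CPM at 30 months. The 3 ages did not overlap. The log2 fold change was −1.06 ± 0.38 from 25 to 30 months (edgeR FDR = 0.0757) and −1.27 ± 0.39 from 20 to 30 months (FDR = 0.0748), and neither was called. Both were called by DESeq2 (FDR = 0.0468 and 0.0208) and by the likelihood ratio test (FDR = 0.0422 and 0.0238). Leaving out 1 steer gave −1.28 to −0.70 from 25 to 30 months and −1.70 to −0.73 from 20 to 30 months. In that second FC comparison 1 of 8 miRNAs was called, *bta-miR-363*, against 6.98% of all miRNAs (4.19% lower).

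*bta-miR-93* was used by the study as the internal control of its quantitative PCR. Its EX level was 10894, 11210 and 14858 CPM at 20 months, 14914, 10766 and 8485 CPM at 25 months, and 26671, 16152 and 17308 CPM at 30 months. In FC it was 16112, 11130.5 and 16378 CPM, then 14204, 10623 and 11005.5 CPM, then 22640, 14728 and 19779 CPM. It was higher at 30 than at 25 months in 3 of 3 steers of each fraction, and the 2 groups did not overlap in either. CPM is a share of the library, and the share of the lymphocyte markers given above was lower at 30 months; its part in this result was not tested.

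After TMM normalization, which scales libraries by the bulk of their miRNAs, the log2 fold change of *bta-miR-93* from 25 to 30 months was 0.37 ± 0.30 in EX (95% confidence interval −0.33 to 1.07, edgeR FDR = 0.469) and 0.54 ± 0.21 in FC (0.05 to 1.03, FDR = 0.102). Neither was called, and both intervals reach past 1. The sign was positive under all 11 alternatives in EX and under 10 of 11 in FC, the exception being the count rows as deposited, which are displaced for this miRNA.

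*bta-miR-25* followed a similar course with smaller differences. Its EX level was 18731, 19932.5 and 25307 CPM at 20 months, 24065, 14819 and 15654 CPM at 25 months, and 36424, 21886 and 26524 CPM at 30 months. In FC it was 17351, 15280 and 19464 CPM, then 18540.1, 12075 and 17089 CPM, then 22881, 14670 and 18410.4 CPM. It was higher at 30 than at 25 months in 3 of 3 steers of each fraction, with overlapping groups. The log2 fold change after TMM normalization was 0.18 ± 0.31 in EX (FDR = 0.776) and 0.10 ± 0.26 in FC (FDR = 0.780), and it turned to −0.18 and −0.44 when each library was scaled to its *bta-miR-93* count.

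**Figure D2:**
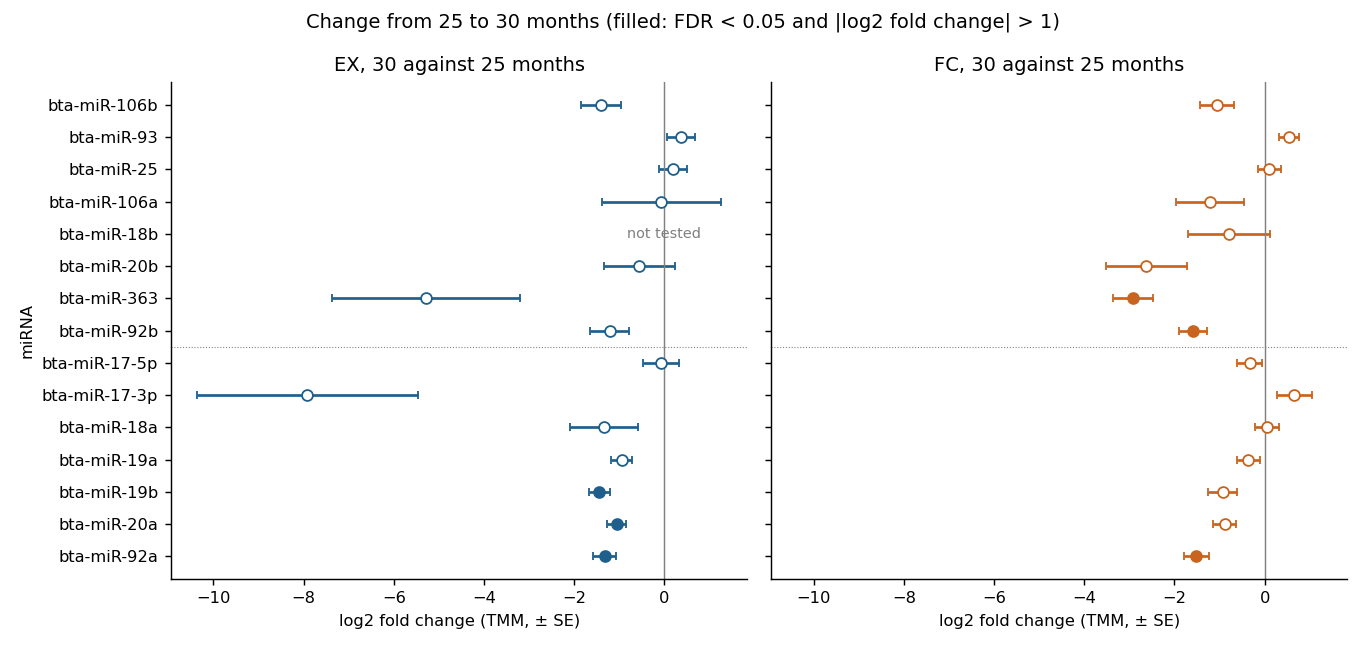
Log2 fold change from 25 to 30 months (horizontal axes, edgeR after TMM normalization, bars are SE, 3 libraries per age) of the 8 miRNAs above the dotted line and of 7 miR-17-92 miRNAs below it, in EX and FC; filled points were called as DE-miRNAs. Among the 8, filled points are *bta-miR-363* and *bta-miR-92b* in FC, and *bta-miR-93* and *bta-miR-25* lie to the right of 0 in both fractions.

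The scale on which changes are read mattered for these comparisons. The median log2 fold change of all miRNAs from 25 to 30 months was −0.51 in EX and −0.20 in FC with TMM, −0.43 and −0.17 with the size factors of DESeq2, and −0.82 and −0.74 with each library scaled to *bta-miR-93*. With that last scale, *bta-miR-106b* was called in both fractions (EX −1.80 ± 0.44, FDR = 0.0449; FC −1.61 ± 0.37, FDR = 0.0168), and 4 of the 7 miRNAs other than *bta-miR-93* were called in FC, against 24.3% of all miRNAs on that scale, adding *bta-miR-20b* (−3.20, FDR = 0.0422). Scaling to *bta-miR-93* also made the decrease of *bta-miR-363* in FC −3.46 (FDR = 0.00248) and that of *bta-miR-92b* −2.12 (FDR = 0.00364).

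A ratio of 2 miRNAs within a library does not depend on the scale, and the ratios below were chosen after their values were seen. *bta-miR-106b* and *bta-miR-93* are processed from the same host transcript, and the level of the former was 3.42 ± 1.03% (mean ± SD, 3 libraries) of the latter in EX at 20 months, 2.70 ± 0.375% at 25 months and 0.809 ± 0.309% at 30 months. In FC it was 1.42 ± 0.323%, 1.38 ± 0.147% and 0.466 ± 0.225%. The libraries at 30 months lay below all others of their fraction. From 25 to 30 months the ratio changed by −1.81 ± 0.59 on the log2 scale in EX and by −1.68 ± 0.63 in FC (mean ± SD over steers), in the same direction in 3 of 3 steers. An exact sign-flip permutation test over steers gave p = 0.25 in each fraction, two-sided, which is the smallest value that 3 steers allow. *bta-miR-25* was 161 ± 23.4% of *bta-miR-93* at 25 months and 142 ± 9.95% at 30 months in EX, which overlapped, and 133 ± 20.9% and 97.9 ± 4.25% in FC, which did not.

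The miR-17-92 list comprised *bta-miR-17-5p*, *bta-miR-17-3p*, *bta-miR-18a*, *bta-miR-19a*, *bta-miR-19b*, *bta-miR-20a* and *bta-miR-92a*, and all 7 were tested in both fractions. Of these, *bta-miR-19b* and *bta-miR-92a* are also encoded in the miR-106a-363 cluster, where *MIR19B-2* lies beside *MIR20B* and *MIR92A-2* beside *MIR363*, and a mature read does not show which copy it came from. From 25 to 30 months, 3 of 7 were called in EX, all lower, against 14.2% of all miRNAs (10.4% lower): *bta-miR-19b* (log2 fold change −1.44), *bta-miR-20a* (−1.06) and *bta-miR-92a* (−1.33). In FC, 1 of 7 was called, *bta-miR-92a* (−1.51), against 15.6% (10.1% lower). From 20 to 30 months, 4 of 7 were called in EX, against 13.3% of all, and 1 of 7 in FC, against 6.98%, all lower. The median log2 fold change of the list from 25 to 30 months was −1.33 in EX, beside −0.51 over all miRNAs, and −0.36 in FC, beside −0.20.

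Set against *bta-miR-20a* and *bta-miR-92a*, relatives with the same seeds, the more abundant paralogs stood higher at 30 months. *bta-miR-93* was 306 ± 71.9% of *bta-miR-20a* at 25 months and 812 ± 121% at 30 months in EX, and 281 ± 47.8% and 739 ± 55.8% in FC. *bta-miR-25* was 154 ± 39.1% of *bta-miR-92a* at 25 months and 434 ± 119% at 30 months in EX, and 127 ± 19.5% and 383 ± 6.72% in FC. Both ratios were higher in 3 of 3 steers of each fraction, and no library at 30 months overlapped with those at 20 or 25 months. The mean log2 changes from 25 to 30 months lay between 1.40 and 1.60, with SD over steers between 0.16 and 0.29 (exact sign-flip permutation test, p = 0.25, the smallest possible). Counts that were not whole, and so held divided reads, occurred for *bta-miR-20a* in 16 of 18 libraries and for *bta-miR-92a* in 11 of 14. Against the much rarer *bta-miR-17-5p*, where they occurred in 18 of 18, the level of *bta-miR-93* did not separate in EX, at 2253 ± 487% at 25 months and 3396 ± 1697% at 30 months, where it was higher in steers 1 and 3 and lower in steer 2. In FC it was 3562 ± 421% and 6557 ± 874%, without overlap (log2 change 0.88 ± 0.29, SD; exact p = 0.25). *bta-miR-92b* was 2.63% of *bta-miR-92a* at 25 months and 2.91% at 30 months in EX, with 2.65% and then 2.57% in FC, and the groups at these 2 ages overlapped (log2 changes 0.14 ± 0.24 and −0.07 ± 0.23, SD). From 20 to 30 months this ratio was higher in 3 of 3 steers in EX without overlap (log2 change 0.60 ± 0.18, SD; exact p = 0.25, the smallest possible), and overlapped in FC (0.24 ± 0.26). The ratio was already higher at 25 than at 20 months in 3 of 3 steers of each fraction without overlap (log2 changes 0.46 ± 0.35 in EX and 0.31 ± 0.12 in FC, SD). Scaled to *bta-miR-93*, *bta-miR-20a* was lower at 30 than at 25 months by −1.43 ± 0.31 (SE; edgeR FDR = 0.0319) in EX and −1.42 ± 0.23 (FDR = 0.00503) in FC, and *bta-miR-92a* by −1.68 ± 0.32 (FDR = 0.0222) and −2.05 ± 0.24 (FDR = 0.00248). These fits restate ratios to *bta-miR-93* that were chosen after their values were seen, so they are not separate support. On that scale the median over all miRNAs was itself −0.82 in EX and −0.74 in FC.

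**Figure D3:**
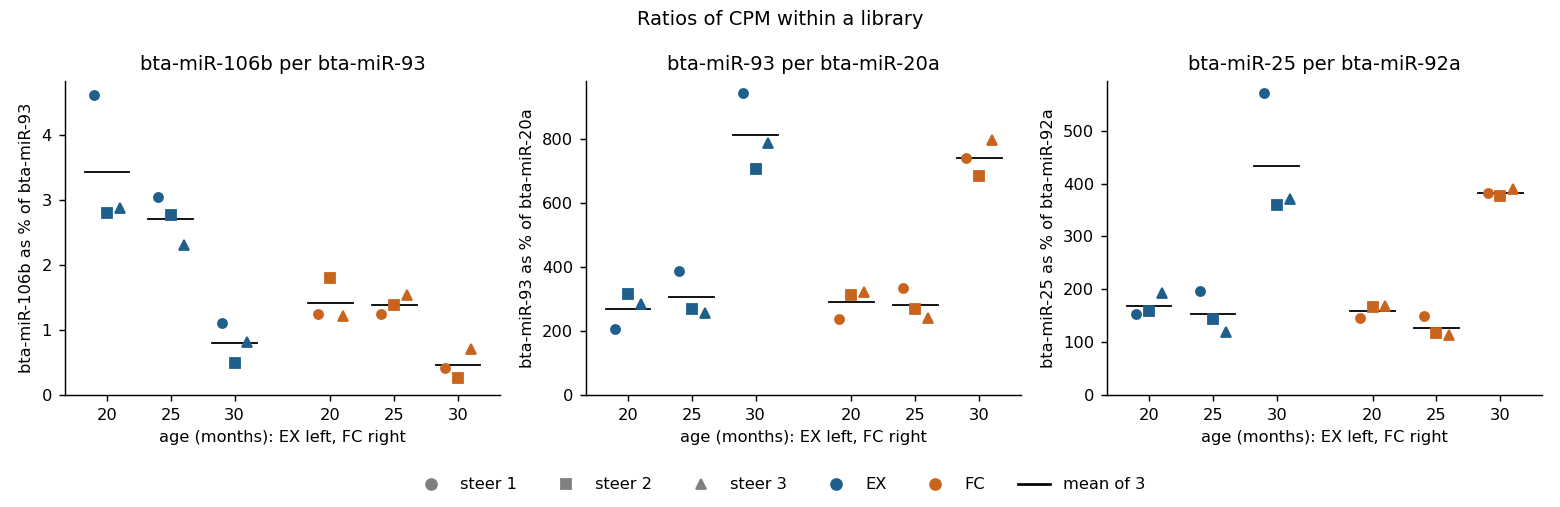
Level of 1 miRNA as a percentage of another in the same library (vertical axes, linear from 0), by age in months, with EX in blue on the left and FC in orange on the right; symbols are steers and bars are means of 3. The ratio of *bta-miR-106b* to *bta-miR-93* is at most 1.11% in the 6 libraries at 30 months, while *bta-miR-93* per *bta-miR-20a* has a minimum of 684% and *bta-miR-25* per *bta-miR-92a* one of 360.1% there.

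The make-up of the 2 abundant seed families stood apart at 30 months. Of the summed CPM of the 6 miRNAs with the seed AAAGUGC, the paralogs *bta-miR-93*, *bta-miR-106b*, *bta-miR-106a* and *bta-miR-20b* held 70.2 ± 4.39% in EX at 20 months, 73.0 ± 3.33% at 25 months and 86.3 ± 2.60% at 30 months, and at the same ages 72.6 ± 3.30%, 72.4 ± 3.16% and 86.9 ± 0.668% in FC. Of the summed CPM of *bta-miR-25*, *bta-miR-92b* and *bta-miR-92a* with the seed AUUGCAC, the first 2 held 62.9 ± 2.79%, 60.4 ± 5.85% and 80.8 ± 3.77% in EX and 61.8 ± 1.86%, 56.2 ± 3.57% and 79.4 ± 0.260% in FC; *bta-miR-32*, in neither list, was left out. In these 2 families and both fractions the 3 libraries at 30 months exceeded all 6 earlier ones. Nearly all of these shares was *bta-miR-93* and *bta-miR-25*, so they restate the ratios above and do not show a rise of the paralogs as a group. In EX at 30 months the means were 20044 and 28278 CPM, against 173 CPM for *bta-miR-106b* and 189 CPM for *bta-miR-92b*. The latter 2 were lower at 30 than at 25 months in 3 of 3 steers of each fraction. Between 25 and 30 months the summed level of the families went from 16024 ± 3909 to 23423 ± 6243 CPM in EX and from 16766 ± 2052 to 22025 ± 4580 CPM in FC for AAAGUGC, and from 30341 ± 5800 to 35003 ± 7484 CPM and from 28820 ± 5450 to 23643 ± 5155 CPM for AUUGCAC, with overlapping groups in each case. In the third family, AAGGUGC, *bta-miR-18b* in EX held 0 to 0.735% beside *bta-miR-18a* at 30 months, a range that lay below the 4.30 to 7.5% of 25 months and overlapped with the 0.554 to 3.57% of 20 months. In FC its 0.326 to 5.499% at 30 months overlapped with the 3.09 to 4.82% at 25 months.

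The earlier interval, 20 to 25 months, gave no call among the 8 miRNAs. The number called was 0 of 7 in EX, against 0.29% of all miRNAs, and 0 of 8 in FC, against 0%, and none had an unadjusted p below 0.05 in the edgeR test, against 2.32% of all in EX and 3.63% in FC. DESeq2, limma and the likelihood ratio test also called 0, against at most 0.87% of all. The log2 fold changes ranged from −1.41 for *bta-miR-106a* to 0.85 for *bta-miR-363* in EX, and from −0.21 for *bta-miR-106b* to 0.71 for *bta-miR-363* in FC. *bta-miR-363* in FC stood higher at 25 than at 20 months in 3 of 3 steers without overlap, as did *bta-miR-92b*. *bta-miR-106b* in FC was lower in 3 of 3 steers without overlap, as was *bta-miR-106a* in EX, at 29.9, 7.92 and 8.88 CPM at 20 months and 5.26, 5.35 and 3.01 CPM at 25 months. In all other cases among the 8 these 2 ages overlapped. How many of all miRNAs separated in this way, between these or later ages, was not counted, so separation of groups is given as description only.

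The second question was how the levels of the miRNAs compare between the vesicles and the free fraction of the same plasma. CPM is a share within a library, so these values do not measure how molecules divide between the fractions. *bta-miR-106b* was higher in EX than in FC in 9 of 9 plasma samples, and *bta-miR-25* and *bta-miR-20b* in 8 of 9. *bta-miR-363* and *bta-miR-18b* were higher in EX in 1 of 9 each. *bta-miR-93* and *bta-miR-92b* were higher in EX in 5 of 9, and *bta-miR-106a* in 4 of 9. With plasma sample as a block, 0 of 7 miRNAs were called, against 9.09% of the 330 tested in both fractions, and 4 of 7 had an unadjusted p below 0.05, against 40% of all. DESeq2 called 2 of 7 (16.4% of all), limma 0 (9.39%) and the likelihood ratio test 1 (18.8%).

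*bta-miR-106b* had a log2 ratio of EX to FC of 0.82 ± 0.22 (SE, 9 pairs; edgeR FDR = 0.0216) and *bta-miR-25* one of 0.25 ± 0.06 (FDR = 0.0194), so both passed the FDR but not the fold threshold. The median over all 330 miRNAs was −0.42. *bta-miR-20b* had 1.07 ± 0.55 (FDR = 0.171) and *bta-miR-363* had −1.42 ± 0.62 (FDR = 0.120), which became −3.23 (FDR = 0.0225) without steer 1. *bta-miR-93*, from the same transcript as *bta-miR-106b*, had −0.20 ± 0.08 (FDR = 0.0912). For the change from 25 to 30 months, the difference between EX and FC was called for 0 of 7, against 4.85% of all miRNAs, with 0 of 7 below an unadjusted p of 0.05, against 21.8% of all. DESeq2 (12.4% of all), limma (6.97%) and the likelihood ratio test (10.6%) called 0. For *bta-miR-93* this difference was −0.09 ± 0.19 (95% confidence interval −0.52 to 0.35) and for *bta-miR-106b* −0.22 ± 0.53 (−1.41 to 0.98).

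Spread between libraries bears on *bta-miR-93* in particular, because it served as a reference. Within the 3 libraries at 30 months, the age of the plasma in which the study used it so, the coefficient of variation (CV) of its CPM was 28.8% in EX and 21.0% in FC. Over the 9 libraries of a fraction, which includes any difference between ages, its CV was 37.0% in EX, the 64th lowest of 345 miRNAs, and 27.1% in FC, the 43rd lowest of 358, where the medians of all miRNAs were 70.5% and 44.2%. The CV of *bta-miR-25* was lower in both fractions, at 29.2% (rank 42) and 17.9% (rank 9). Low-abundance miRNAs vary more, so the comparison was also made, by a choice taken after seeing the data, among miRNAs with a mean over 10000 CPM. There, *bta-miR-93* ranked 14th of 25 in EX and 12th of 23 in FC, and *bta-miR-25* ranked 12th and 5th. On TMM-normalized CPM, the CV of *bta-miR-93* was 27.2% in EX and 22.6% in FC. Of the less abundant members, *bta-miR-92b* had 26.9% in EX and 41.2% in FC, and *bta-miR-363* had 70.5% and 61.6%.

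**Figure D4:**
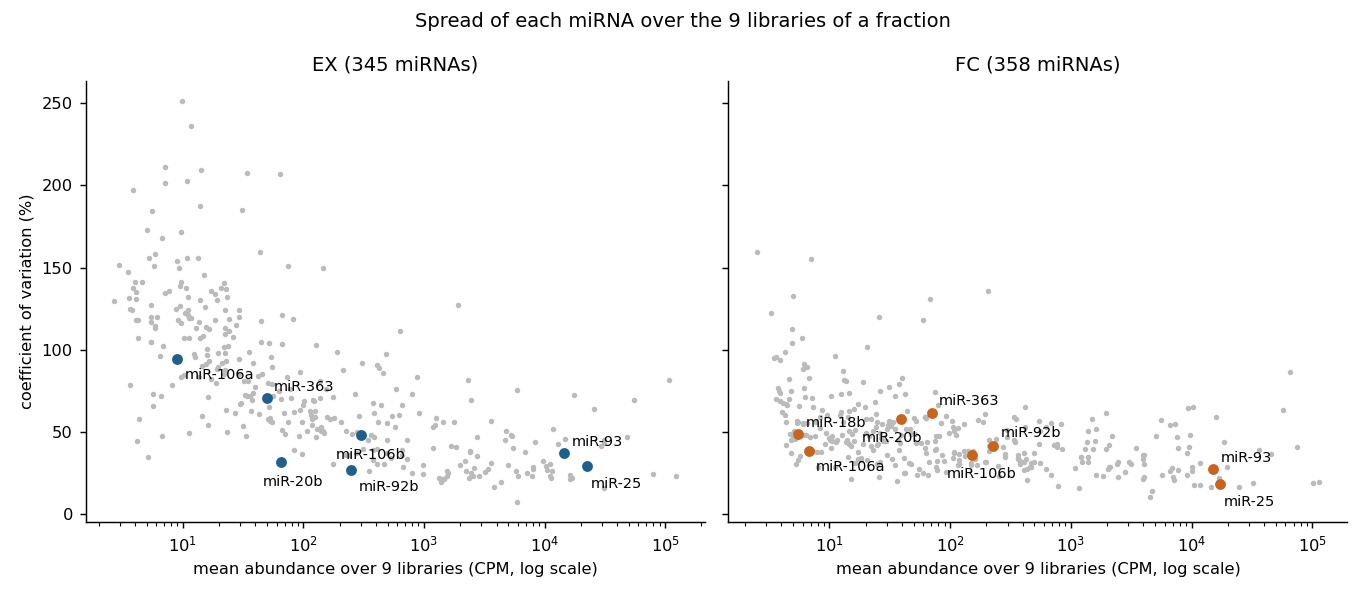
Coefficient of variation of CPM (vertical axis, %) against mean abundance (horizontal axis, CPM on a log scale) over the 9 libraries of EX and FC; each grey point is 1 miRNA that passed the filter and coloured points are the described miRNAs. *bta-miR-93* lies at 37.0% in EX and 27.1% in FC, above *bta-miR-25* in each.

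Likeness of course over the 18 libraries was measured as the root mean square (RMS) difference of log2(CPM + 1), each miRNA centred on its own mean, between each of the 7 that passed in both fractions and the 323 other miRNAs that did. With a pseudocount of 5, 17 of the 21 named below were again among the 3 nearest, the exceptions being *bta-miR-17-5p* for *bta-miR-106b* and *bta-miR-106a*, and all but *bta-miR-671* for *bta-miR-363*. The 3 miRNAs most like *bta-miR-93* were *bta-miR-185* (RMS 0.274), *bta-miR-27b* (0.287) and *bta-miR-151-3p* (0.293), where the median over the 323 was 1.19. Its cluster mates stood at 0.298 for *bta-miR-25* and 1.06 for *bta-miR-106b*. Most like *bta-miR-25* were *bta-miR-16b* (0.248), *bta-miR-101* (0.277) and *bta-miR-191* (0.292). *bta-miR-106b* was nearest to *bta-miR-92a* (0.639), *bta-miR-15b* (0.686) and *bta-miR-17-5p* (0.688), and *bta-miR-92b* to *bta-miR-92a* (0.293), *bta-miR-15b* (0.359) and *bta-let-7a-5p* (0.393).

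In the miR-106a-363 cluster, *bta-miR-106a* was nearest to *bta-miR-20a* (RMS 0.629), *bta-miR-17-5p* (0.651) and *bta-miR-15b* (0.661), with which reads of *bta-miR-106a* can be shared in the first 2 cases. Nearest to *bta-miR-20b* were *bta-let-7c* (1.01), *bta-miR-145* (1.07) and *bta-miR-92a* (1.08), with *bta-miR-106b* of the 8 at 1.00. *bta-miR-363* was nearest to *bta-miR-671* (0.540), a candidate miRNA numbered 19 by the authors (0.809) and *bta-miR-1277* (1.02). The distances of *bta-miR-363* include 2 EX libraries in which it had 0 counts. These distances describe the same 18 libraries, which share age, steer and depth.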

How the data were processed

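Small RNA was sequenced from the EX and FC fractions of 9 plasma samples. The authors trimmed the reads with Cutadapt 5.0 and Trimmomatic 0.39, checked them with FastQC 0.12.1, mapped them to a Japanese Black genome made by resequencing on the cattle reference ARS-UCD 1.2, and assigned them to miRBase miRNAs with miRDeep2. They deposited expected counts per miRNA, which are not whole where reads were divided among related miRNAs, and a signal table of CPM, these counts scaled to the same total in each library.

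In 4 FC libraries, the deposited counts in the lower part of the table, which holds *bta-miR-92b* and *bta-miR-93*, stood in rows other than those of the CPM table. Levels are therefore the deposited CPM values, and the counts of every displaced row (77 to 101 rows per library) were recomputed from CPM and library total. These include 8 values of *bta-miR-92b* and *bta-miR-93*, and those of *bta-miR-92a*. A count was kept where it matched within a relative tolerance of 0.001 or within 0.02 counts. The authors' comparisons were not used.

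The counts, rounded to whole numbers, were limited to miRNAs whose deposited CPM exceeded 5 in 3 or more of a fraction's 9 libraries. They were normalized by TMM and tested with edgeR 4.0.16 (quasi-likelihood F test, R 4.3.3), separately for each fraction with age and steer as terms, and for EX against FC over 18 libraries with plasma sample as a block. Adjusted P values (FDR, Benjamini-Hochberg) cover all miRNAs tested in a comparison, and standard errors follow from the log2 fold change and its F statistic. Alternatives used limma 3.58.1 (log2 of CPM plus a pseudocount of 1), DESeq2 1.42.0, other scalings and filters, and leaving out each steer. The scripts were tested on simulated data. Tables and figures were made with Python 3.11.15, numpy 2.4.6, pandas 2.3.3, scipy 1.17.1 and matplotlib 3.10.9.

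The replicate numbers were taken to pair the libraries. Each of the 3 steers was bled at all ages, per the study's sample list, and EX and FC came from the same plasma. The library labels give only a number within each group, so that a number marks the same steer at each age is an assumption. Deviations from the group means correlated on average at 0.023 within steer and −0.012 between steers in EX, at 0.089 and −0.045 in FC, and at 0.234 and −0.118 between EX and FC of the same age. No 2 libraries of a group were copies (18 pairs, chi-square per degree of freedom of at least 198).

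The 8 miRNAs, the miR-17-92 list and the blood cell markers were chosen with earlier results of these data known. Named miRNAs are the 8, the miR-17-92 list, and the 3 most alike to each of the 7 that passed in both fractions. RefSeq gene names were used for neighbours only, since that table is of assembly ARS-UCD2.0 and the files were not made on it. Mature sequences are those of the deposited table. Target prediction, quantitative PCR and carcass traits were not analysed here.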

Additional observations from a re-analysis of the deposited data

Results flagged for a closer look

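*bta-miR-17-3p*, of the miR-17-92 list, moved in opposite directions in the 2 fractions in every steer. From 25 to 30 months it was lower in 3 of 3 steers in EX, from 33.8, 25.0 and 33.6 CPM to 0.503, 0 and 0 CPM (1, 0 and 0 counts), and higher in 3 of 3 steers in FC, from 31.4, 21.6 and 25.2 CPM to 54.8, 47.9 and 33.4 CPM. The difference between the 2 changes was −8.14 ± 2.12 on the log2 scale (SE; edgeR FDR = 0.0510) and was not called, and its size rests on the libraries at 0. From 20 to 25 months it was higher in 3 of 3 steers in EX and lower in 3 of 3 in FC, and that difference was not tested. At 20 months it ranged from 0 to 33.1 CPM in EX, with 1 library at 0, and from 31.8 to 34.9 CPM in FC. The groups at 20 and 30 months overlapped in both fractions. None of the 8 described miRNAs moved in opposite directions in all steers of the 2 fractions.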

How the results depend on the processing

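The numbers called among the 8 miRNAs were small and moved with the test. From 25 to 30 months in EX, 0 became 1 with the likelihood ratio test (26.1% of all miRNAs called), with limma (20%), with scaling to *bta-miR-93* (11%) and without the replicate block (19.1%), and 3 with DESeq2 (24.6%). In FC, 2 became 4 with the likelihood ratio test (79 of 358 miRNAs), DESeq2 (22.3%), scaling to *bta-miR-93* (24.3%) and no filter (8.84%), and 1 with the deposited rows (2.69%). From 20 to 30 months, 1 in EX became 2 with DESeq2 (22.6%) and limma (16.8%) and 0 without the replicate block (15.7%), and 1 in FC became 3 with DESeq2 (13.7%), scaling to *bta-miR-93* (16.5%) and no filter (6.57%), 2 with the likelihood ratio test (14.8%) and limma (11.7%), and 0 with the deposited rows (0.538%). For EX against FC, 0 became 1 with scaling to *bta-miR-93* (9.09%), CPM over 1 (9.79%) and the likelihood ratio test (18.8%), and 2 with DESeq2 (16.4%) and the deposited rows (10.3%). For the difference of changes, 0 became 1 with the deposited rows (6.08%). The block changed no other call among the 8 miRNAs. Without steers 1, 2 and 3, the FC number from 25 to 30 months was 0 (0.279%), 3 (15.1%) and 0 (0.279%). The other ranges were 0 to 0 (0 to 5.22%) or, for EX against FC, 0 to 1 (4.24 to 7.88%).

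The larger moves over all miRNAs are named here, and the numbers under settings not named moved less. DE-miRNAs from 25 to 30 months numbered 49 in EX, which became 90 with the likelihood ratio test and 85 with DESeq2, and 56 in FC, which became 87 with scaling to *bta-miR-93* and 10 with the deposited rows. Smaller moves at these ages included 69 with limma and 66 without the replicate block in EX, and 79 with the likelihood ratio test and 80 with DESeq2 in FC. From 20 to 30 months, 46 in EX became 20 with scaling to *bta-miR-93*, 83 with the likelihood ratio test and 78 with DESeq2. In FC, 25 became 59 with scaling to *bta-miR-93*, 52 with no filter, 53 with the likelihood ratio test, 49 with DESeq2, 42 with limma and 2 with the deposited rows. From 20 to 25 months, 1 in EX became 0 with scaling to *bta-miR-93*, 2 with no filter and 3 with DESeq2. For EX against FC, 30 became 62 with the likelihood ratio test and 54 with DESeq2. For the difference of changes, 16 became 35 with the likelihood ratio test, 41 with DESeq2, 26 without the replicate block and 25 with steer as the block. Without 1 steer, with only 2 steers left, the ranges were 0 to 18 and 1 to 54 (25 to 30 months, EX and FC), 0 to 12 and 1 to 10 (20 to 30 months), 0 to 1 and 0 to 1 (20 to 25 months), 14 to 26 (EX against FC) and 0 to 11 (difference of changes).

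Signs turned for values near 0. The EX change of *bta-miR-106a* from 25 to 30 months became 0.023 with DESeq2, 0.21 with limma and 0.25 without the replicate block. *bta-miR-25* turned negative when scaled to *bta-miR-93* (−0.18 and −0.44 from 25 months, −0.30 and −0.31 from 20 months, in EX and FC). *bta-miR-20b* in EX from 20 to 30 months became 0.0067 with the size factors of DESeq2, 0.0041 with its test and 0.22 with limma. With the deposited rows, which are displaced, *bta-miR-92b* and *bta-miR-93* took values of 3.51 and −10.44 (25 to 30 months, FC), 6.25 and −12.96 (20 to 30 months, FC) and −2.71 and 4.53 (EX against FC). Leaving out 1 steer gave −0.61 to 0.42 for *bta-miR-106a* in EX from 25 to 30 months. It gave −0.018 to 0.34 for *bta-miR-25* in FC over the same ages. From 20 to 30 months it gave −0.45 to 0.43 for *bta-miR-20b*, −0.31 to 0.25 for *bta-miR-25* and −0.030 to 0.54 for *bta-miR-93* in EX, and −1.34 to 0.36 for *bta-miR-18b* and −0.17 to 0.24 for *bta-miR-25* in FC. For *bta-miR-106a*, EX against FC, it gave −0.15 to 0.40. Apart from the displaced rows and the smaller number of steers, the cause of these shifts was not tested. Counts were lowest, at under 3 in single libraries, for *bta-miR-18b* and *bta-miR-106a* in EX and, at 30 months, for *bta-miR-363* in EX and *bta-miR-18b* and *bta-miR-20b* in FC.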
